A study of Mus musculus with 7 samples.

Results

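The genes described here are transcripts that mark the epithelium of the colon, measured in macrophages sorted from that tissue. The list held 42 genes of epithelial junctions, keratins, mucus, absorptive colonocytes, epithelial transcription factors, stem cells and hormone cells. A gene was measured where a probe set of the array carried its symbol alone, and the brightest such probe set stood for it. By that rule 41 of the 42 were measured, of 19938 genes in all. The remaining gene, Fcgbp, a mucus protein, shared its probe sets with other genes and was not analysed here. The list was put together with earlier results of these data known, and Sycn and Nxpe2 had already been named in them for their differences.

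The series asked how colonic macrophages change when they cannot sense interleukin-10 (IL-10), a cytokine that restrains inflammation, and when mice lack it. Its 7 arrays hold macrophages that were isolated by cell sorting out of the lamina propria of the colon, from C57BL/6 mice that were 6 weeks old. WT stands for mice with 1 Cx3cr1 allele replaced by GFP (Cx3cr1gfp/+). It comprises 1 array of cells labelled CX3CR1hi and 3 arrays of cells labelled resident. Il10_KO is 1 array of CX3CR1hi cells from IL10-/- CX3CR1gfp/+ mice. Il10ra_mKO is 2 arrays of resident cells from CX3CR1cre:IL10Raflox/flox mice, in which Cre recombinase under the control of Cx3cr1 deletes Il10ra, the ligand-binding chain of the IL-10 receptor. The labels name no array with Cre but without the floxed alleles, so the Cx3cr1 allele (GFP or Cre) and the deletion cannot be told apart. The sort label follows the RNA extraction kit as far as the protocol numbers the samples, so effects of the label, of the kit and of an array batch cannot be told apart either. Each mutant was therefore set against WT of its own sort label. Whether the arrays of a group came from separate mice is not in the labels, and the p-values cover no more than the spread between these samples, possibly a technical one.

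A single layer of epithelial cells lines the colon directly above the lamina propria. Its absorptive colonocytes take up salt and water, its goblet cells secrete the mucus barrier, its enteroendocrine cells release hormones, and stem cells at the crypt base renew all of them. Macrophages lie just beneath this layer and take up dying epithelial cells. Junction proteins, keratins, mucins and the transcription factors Cdx1, Cdx2 and Hnf4a define epithelial cells and are not part of the usual macrophage programme, although Ceacam1 and Cdh1 are also known from some immune cells.

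The deposited values are log2 expression levels. Resident WT arrays had Il10ra at log2 10.56, 10.76 and 11.12, against 8.05 and 7.04 for Il10ra_mKO. Among CX3CR1hi arrays Il10ra stood at 11.32 for WT and 11.61 for Il10_KO. Of the 15 macrophage markers listed, 14 were measured, and all 14 lay above log2 5.86, the median of all deposited values, in all 7 arrays. Their mean level was 11.78 to 11.90 in the resident WT arrays, 11.63 and 11.89 in the Il10ra_mKO arrays, 11.82 in the CX3CR1hi WT array and 11.96 in the Il10_KO array. The upper quartile of all values was 7.93 to 8.01 in the resident arrays and 8.26 and 8.30 in the CX3CR1hi arrays. Values were therefore compared within a sort label first.

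Epithelial transcripts were present in the RNA of the sorted macrophage samples of every group. In all 7 arrays 35 of the 41 lay above log2 5.86, and in the 4 WT arrays 39 did. Their mean level was 9.74, 10.13 and 9.81 in the resident WT arrays. The SD of these 3 means was 0.20. The mean level was 9.58 in Il10ra_mKO array 1, less than 1 such SD below the lowest WT array, and 8.17 in Il10ra_mKO array 2, far below all 3. Without Sycn and Nxpe2 array 1 was at 9.71, inside the range of the WT arrays, the lowest of which was at 9.69. In the CX3CR1hi arrays it was 10.52 in WT and 9.88 in Il10_KO. Which of the sorted cells, or which free RNA, carried these transcripts was not tested. In sorted bulk RNA, fewer epithelial cells and less RNA per epithelial cell cannot be told apart.

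**Figure D1:**
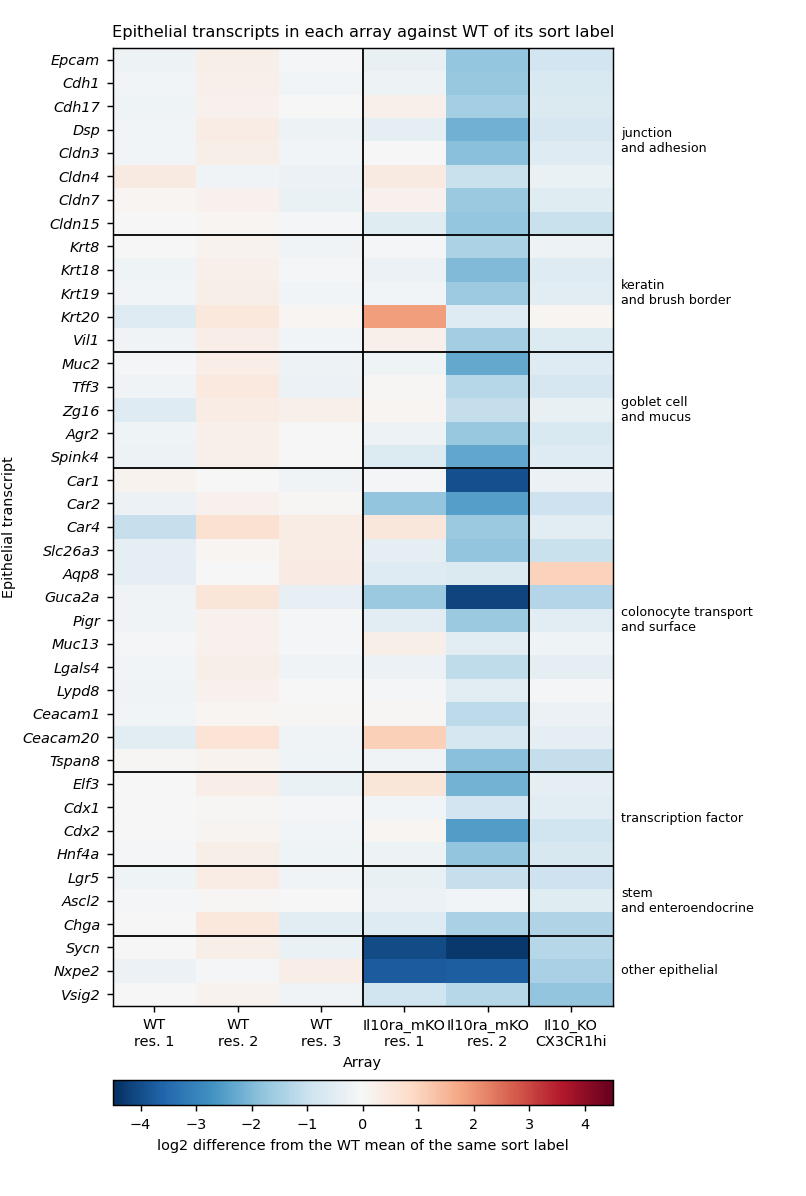
Log2 difference of each of the 41 epithelial transcripts (vertical axis, grouped by role) in 6 arrays (horizontal axis) from the WT mean of the same sort label. Blue is lower and red higher; Il10ra_mKO array 2 is blue throughout, while in array 1 Sycn, Nxpe2, Car2 and Guca2a are the 4 that are lower by at least 2-fold and Krt20 and Ceacam20 the 2 that are higher by at least 2-fold.

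The 2 Il10ra-deleted arrays differed from each other in these transcripts. In Il10ra_mKO array 2 all 41 were lower than the mean of the resident WT arrays, as were 47.0% of all genes. They included 33 that were lower by at least 2-fold, where 2.63% of all genes were lower by that much. The median difference was -1.67 on the log2 scale, or 3.19-fold lower, with the middle of the list between -1.99 and -1.14. In array 1 the median difference was -0.21, and 4 of the 41 were lower by at least 2-fold (0.968% of all genes) and 2 higher (1.06% of all genes). Without Sycn and Nxpe2, 2 of 39 were lower by at least 2-fold in array 1 and 31 of 39 in array 2. Array 1 lay inside the range of the 3 resident WT arrays for 15 of the 41 (57.9% of all genes) and array 2 for 1, Krt20. Array 2 lay below that range for the other 40, against 23.7% of all genes. The resident WT arrays differed among themselves by less, with medians of -0.12, 0.23 and -0.12 from their own mean. Array 2 lay below array 1 for 39 of the 41, against 40.3% of all genes, with a median difference of -1.41. Against the WT arrays with neighbouring numbers in the sample titles, the medians were -0.25 for array 1 and -1.59 for array 2.

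Over both arrays the median difference between Il10ra_mKO and WT was -0.94, and the median over all genes was 0. None of the 41 passed the test, limma with Benjamini-Hochberg adjustment over all 19938 genes (adjusted p under 0.05), and 0.00502% of all genes did. At an unadjusted p under 0.05, 7 of the 41 were lower and 0 higher, against 3.86% and 4.06% of all genes. Both Il10ra_mKO arrays lay below all 3 resident WT arrays for 21 of the 41 (8.50% of all genes), and above them for 0 (8.92%). Sycn and Nxpe2 were listed with this difference known. Without them, 5 of 39 were lower at the unadjusted p, and both arrays lay below all 3 WT arrays for 19 of 39. Leaving out Il10ra_mKO array 1 gave a median of -1.67, and leaving out array 2 gave -0.21, so its size rests on which deleted array is used.

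**Figure D2:**
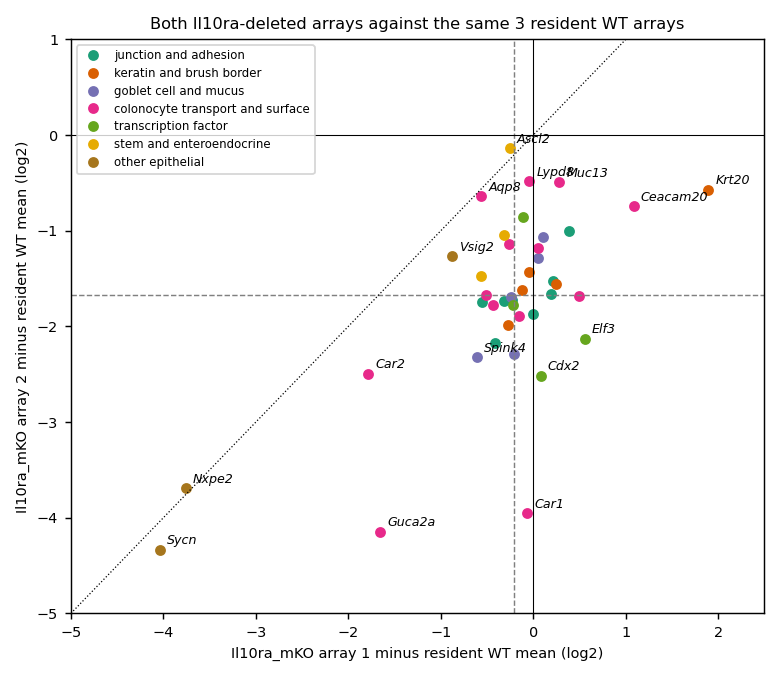
Difference from the resident WT mean in Il10ra_mKO array 1 (horizontal axis, log2) and array 2 (vertical axis, log2) for each of the 41 epithelial transcripts, coloured by role. The dashed lines mark the medians (-0.21 and -1.67) and the dotted line marks equal differences in both arrays; most transcripts form a cloud at the crossing of the medians, and Sycn and Nxpe2 lie on the dotted line far to the lower left.

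The 8 junction and adhesion genes had a median of -0.12 in array 1 and -1.72 in array 2. Epcam, an epithelial adhesion molecule, stood at 10.64, 11.16 and 10.85 in the resident WT arrays, against 10.57 and 9.15 in Il10ra_mKO. Cdh1 encodes E-cadherin, the core of the adherens junction, and stood at 10.53, 10.88 and 10.54 in WT, against 10.42 and 8.93 in Il10ra_mKO. In both, array 1 lay just below the WT range and array 2 far below it. By limma the difference was -1.02 ± 0.50 (SE, 2 against 3 arrays) for Epcam and -0.98 ± 0.51 for Cdh1 (adjusted p = 0.678 for both). The desmosome gene Dsp was at -2.18 from WT in array 2 and at -0.42 in array 1. The claudins, which seal or open tight junctions, had differences in array 2 of -1.88 for Cldn3, -1.66 for Cldn7 and -1.74 for Cldn15, and Cldn4 was just short of a 2-fold difference. In array 1 Cldn4 and Cldn7 were at 0.39 and 0.19, and Cldn15, which forms a channel for sodium ions, was at -0.55. Cdh17, the liver-intestine cadherin, was at 0.22 in array 1 and -1.53 in array 2. Of the 8 junction genes, 7 were lower by at least 2-fold in array 2 and 0 in array 1.

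Keratins fill the epithelial cytoplasm as paired filaments, and Krt8, Krt18 and Krt19 are those of simple epithelium. Krt8 stood at 12.94, 13.08 and 12.77 in resident WT, against 12.88 and 11.50 in Il10ra_mKO. Krt19 stood at 11.60, 11.97 and 11.59 in WT, against 11.60 and 10.10 in Il10ra_mKO. Array 1 lay inside the WT range for both keratins, and array 2 outside it. Krt18 was -0.27 from WT in array 1 and -1.99 in array 2, and Vil1, the villin of the brush border, was 0.24 and -1.56. Krt20 marks the most mature surface cells and did not follow the other keratins. It stood at 8.43, 9.49 and 9.10 in WT, at 10.90 in array 1 and at 8.44 in array 2. Array 1 lay above every resident WT array and array 2 at their lower end, so the difference over both (0.66 ± 0.89, SE, adjusted p = 0.796) has the sign of array 1 alone.

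The goblet cell genes were lower in array 2 by 2-fold or more in 5 of 5 measured, and in array 1 in 0. Muc2, the gel-forming mucin of the colon, stood at 11.85, 12.19 and 11.69 in resident WT, against 11.70 and 9.62 in Il10ra_mKO. Agr2, which folds mucins in the endoplasmic reticulum, stood at 11.89, 12.28 and 12.04 in WT, against 11.84 and 10.38 in Il10ra_mKO. Array 1 was within or just below the WT range in both genes. Spink4, a secreted peptide of goblet cells, was -0.61 from WT in array 1 and -2.32 in array 2. Tff3, the trefoil peptide of mucus, was at 0.05 and -1.29, and Zg16, a mucus lectin that binds bacteria, at 0.10 and -1.06.

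The 13 colonocyte genes had a median of -0.16 in array 1 and -1.67 in array 2, with wide spread between genes. Lypd8, a surface protein that keeps bacteria off the epithelium, stood at 13.25, 13.60 and 13.41 in resident WT, against 13.38 and 12.94 in Il10ra_mKO. Ceacam1, an adhesion receptor, stood at 12.76, 12.97 and 12.92 in WT, against 12.93 and 11.70 in Il10ra_mKO. Lypd8 in array 2 was -0.48 from WT, and the transmembrane mucin Muc13 was -0.49 there, both well short of the list's median. Lgals4, a galectin of the gut epithelium, was -1.14 from WT in array 2, Pigr, which carries IgA to the lumen, -1.67, the chloride exchanger Slc26a3 -1.78 and the tetraspanin Tspan8 -1.89. In array 1 these 4 were at -0.26, -0.51, -0.43 and -0.16. Ceacam20, a brush border protein, stood at 7.24, 8.31 and 7.55 in WT, 8.79 in array 1 and 6.96 in array 2, so that array 1 was the highest and array 2 the lowest of the 5 arrays. Its difference over both was 0.17 ± 0.70 (SE, adjusted p = 0.963), and turned to -0.06 without WT resident array 1 and to -0.10 against all 4 WT arrays.

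The carbonic anhydrases, which interconvert carbon dioxide and bicarbonate, had unlike patterns. Car1 stood at 13.31, 13.13 and 12.98 in resident WT, 13.07 in array 1 and 9.19 in array 2. It lay inside the WT range in array 1 and was -3.95 from WT in array 2. Car2 stood at 11.64, 12.10 and 11.96 in WT, against 10.12 and 9.41 in Il10ra_mKO, so both deleted arrays were below all WT arrays (-2.14 ± 0.28, SE, 4.40-fold lower, adjusted p = 0.258). Car4 varied among the WT arrays themselves, at 8.47, 10.17 and 9.83, and was at 9.98 and 7.81 in Il10ra_mKO. Guca2a, the peptide guanylin that drives fluid secretion, stood at 10.56, 11.26 and 10.37 in WT, against 9.07 and 6.59 in Il10ra_mKO (-2.90 ± 0.88, SE, 7.48-fold lower, adjusted p = 0.556). Both arrays lay below WT, array 2 by the larger margin. Car1 and Guca2a were chosen for full values after their values were seen.

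Of the 4 transcription factor genes, 3 were lower by at least 2-fold in array 2 and 0 in array 1. Hnf4a, a nuclear receptor that maintains the enterocyte programme, stood at 10.59, 10.89 and 10.45 in resident WT, against 10.42 and 8.86 in Il10ra_mKO. Elf3, an epithelial factor of the ETS family, stood at 9.96, 10.26 and 9.65 in WT, 10.52 in array 1 and 7.83 in array 2. Array 1 was thus above the WT range and array 2 below it, and without array 2 the difference of Elf3 was 0.56. The intestinal homeobox gene Cdx2 was 0.08 from WT in array 1 and -2.52 in array 2, and Cdx1 -0.11 and -0.85.

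The stem cell and hormone genes were dim. Lgr5, the receptor that marks crypt stem cells, stood at 5.73, 6.28 and 5.77 in resident WT, against 5.61 and 4.88 in Il10ra_mKO. Chga, the granule protein chromogranin A of enteroendocrine cells, stood at 7.33, 7.77 and 6.80 in WT, against 6.74 and 5.83 in Il10ra_mKO. In both genes each deleted array lay below the WT range, array 1 narrowly. Ascl2, a stem cell transcription factor, lay under log2 5.86 in all 5 resident arrays, at 5.10 to 5.25 in WT, against 4.92 and 5.04 in Il10ra_mKO. The method of summary used for these values can compress low levels, so differences of dim genes may understate a change in RNA. This was not tested here.

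A small number of epithelial transcripts were low in both deleted arrays. Sycn encodes syncollin, a protein of secretory granules, and stood at 11.94, 12.18 and 11.59 in resident WT, against 7.87 and 7.57 in Il10ra_mKO. Nxpe2 encodes a member of the neurexophilin and PC-esterase family and stood at 9.56, 9.77 and 10.13 in WT, against 6.07 and 6.13 in Il10ra_mKO. For both genes the 2 deleted arrays were close to each other and far below WT. Sycn was 18.2-fold lower (-4.19 ± 0.22, SE) and Nxpe2 13.2-fold lower (-3.73 ± 0.19), each with adjusted p = 0.123. Both passed with only the genes above log2 5.86 tested (adjusted p = 0.0387 for both), with quantile normalization (0.00459 and 0.00208), with each array centred on its median (1.8e-05 and 4.61e-05) and against all 4 WT arrays (0.0016 and 0.00518). In the other 9 of 13 alternatives neither passed. By limma Car2 also passed with quantile normalization (adjusted p = 0.0343), median centring (0.002) and all 4 WT arrays (0.0256). Vsig2 passed with quantile normalization (0.0344) and median centring (0.0033), and Guca2a with median centring (0.0294). Over all 13 alternatives the difference lay between -4.34 and -4.04 for Sycn and between -3.86 and -3.57 for Nxpe2, with adjusted p up to 0.553. Relative to the list's median in the same array, Sycn was at -3.83 in array 1 and -2.66 in array 2, and Nxpe2 at -3.55 and -2.02. Vsig2, an immunoglobulin-domain protein of the gut surface, stood at 6.45, 6.58 and 6.28 in WT, against 5.56 and 5.17 in Il10ra_mKO (-1.07 ± 0.16, SE, adjusted p = 0.309). In all, 4 of the 41 were lower by at least 2-fold in both deleted arrays, namely Sycn, Nxpe2, Guca2a and Car2, against 0.687% of all genes. Sycn and Nxpe2 were listed with this difference known, and without them the count was 2 of 39.

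**Figure D3:**
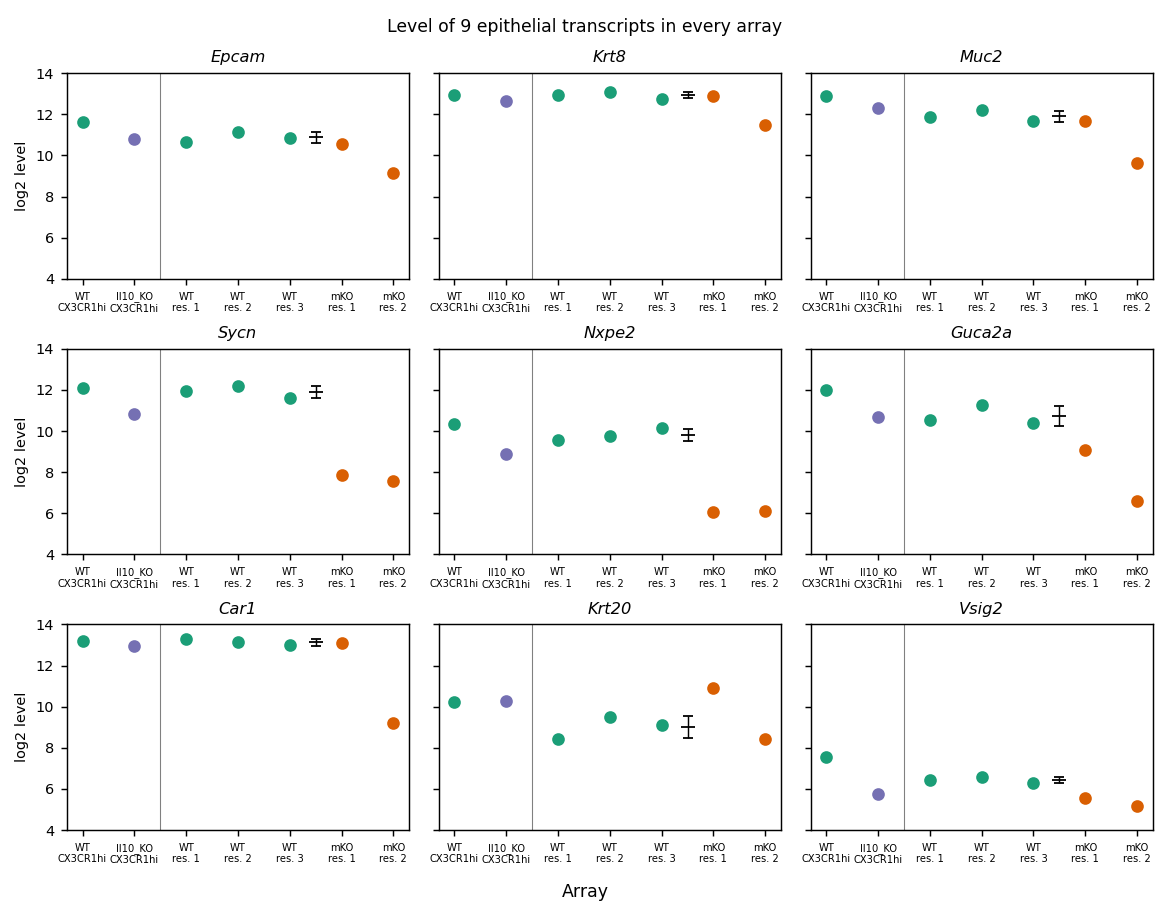
Log2 level (vertical axis) of 9 epithelial transcripts in each of the 7 arrays (horizontal axis), with CX3CR1hi arrays left of the grey line and resident arrays (res.) right of it; green is WT, purple Il10_KO and orange Il10ra_mKO (mKO), and the bar gives the mean ± SD of the 3 resident WT arrays. Epcam, Krt8, Muc2 and Car1 are far lower in Il10ra_mKO array 2 than in array 1, Sycn and Nxpe2 are low in both Il10ra_mKO arrays, and Krt20 is high in array 1.

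The promoters of transcripts with different patterns are shown so that their sequences can be read against the levels. RefSeq promoter entries of assembly GRCm38.p6 were matched by symbol for 31 of the 42 genes. Each line gives the 250 bases before the annotated start of its promoter entry, 5′ to 3′ on the gene's strand. For Sycn, Guca2a, Krt20 and Epcam that was the start of the gene. For Nxpe2 it was not, so its distances are not from the start of the gene. Capitals mark matches, on either strand, to a short motif of factors active in gut epithelium: TTTATG for CDX factors, AGATAA for GATA factors, AAAGTCCA for HNF4 and CCNCNCCC for KLF factors. Sycn, Nxpe2 and Guca2a were low in both deleted arrays, Krt20 was high in array 1, and Epcam was near the list's median in both. These genes were chosen after their values were seen.
Sycn (chr7:28540635-28540884, plus strand): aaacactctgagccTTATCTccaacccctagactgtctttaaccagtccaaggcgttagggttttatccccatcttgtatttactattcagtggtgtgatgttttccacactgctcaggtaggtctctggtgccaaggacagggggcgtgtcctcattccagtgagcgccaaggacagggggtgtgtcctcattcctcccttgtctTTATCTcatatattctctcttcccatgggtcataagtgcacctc
Nxpe2 (chr9:48340899-48341148, minus strand): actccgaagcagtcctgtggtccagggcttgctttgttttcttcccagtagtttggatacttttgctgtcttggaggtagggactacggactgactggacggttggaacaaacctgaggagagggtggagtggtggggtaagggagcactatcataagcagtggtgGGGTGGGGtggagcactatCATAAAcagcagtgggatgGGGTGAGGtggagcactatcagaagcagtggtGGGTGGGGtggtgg
Guca2a (chr4:119637482-119637731, plus strand): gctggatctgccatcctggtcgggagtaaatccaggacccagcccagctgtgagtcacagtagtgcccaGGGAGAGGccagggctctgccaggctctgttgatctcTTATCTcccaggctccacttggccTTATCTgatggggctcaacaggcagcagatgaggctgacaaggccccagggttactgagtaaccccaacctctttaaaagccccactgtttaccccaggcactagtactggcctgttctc
Krt20 (chr11:99438154-99438403, minus strand): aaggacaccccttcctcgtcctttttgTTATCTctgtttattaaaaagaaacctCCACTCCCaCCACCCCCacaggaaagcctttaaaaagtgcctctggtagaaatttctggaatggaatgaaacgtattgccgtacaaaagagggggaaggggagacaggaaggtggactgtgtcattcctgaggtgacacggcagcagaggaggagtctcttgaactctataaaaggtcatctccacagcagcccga
Epcam (chr17:87635729-87635978, plus strand): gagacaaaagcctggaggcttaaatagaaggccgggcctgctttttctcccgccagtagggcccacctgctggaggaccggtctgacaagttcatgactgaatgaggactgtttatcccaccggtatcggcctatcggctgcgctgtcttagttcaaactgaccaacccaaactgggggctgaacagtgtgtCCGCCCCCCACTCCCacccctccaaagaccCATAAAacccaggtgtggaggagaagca
The Sycn window held 2 GATA matches, 236 and 44 bases before the start, and the Guca2a window held 2, at 144 and 120 bases, besides 1 KLF match. Nxpe2 held 1 CDX match at 65 bases and 3 KLF matches, Krt20 held 1 GATA match at 223 bases and 2 KLF matches, and Epcam held 1 CDX match at 28 bases and 2 KLF matches. Over the 35 promoter entries of the listed genes, GATA matches were in 7 (20.0%) against 9.99% of all 32851 entries, and CDX matches in 4 (11.4%) against 10.8%. HNF4 matches were in 2 (5.71%) against 1.01%, and KLF matches in 27 (77.1%) against 45.9%. No test was made of these shares. A match is a description of the letters, not a bound site.

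Genes that lie side by side in the genome did not always have like differences. By the RefSeq order of protein-coding genes, Krt8 and Krt18 are direct neighbours, as are Cldn3 and Cldn4. In array 2 Krt8 and Krt18 were at -1.43 and -1.99, and Cldn3 was at -1.88 with Cldn4 nearer to WT. Car1 and Car2 are separated by 1 gene and differed in array 1, at -0.07 against -1.78. Lgr5 and Tspan8 are also separated by 1 gene and were at -1.04 and -1.89 in array 2.

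In the Il10_KO array the epithelial transcripts were lower as well, with a median between those of the Il10ra_mKO arrays. Of the 41, 39 were below the CX3CR1hi WT array, against 43.7% of all genes, and the median difference was -0.59. The 3 mutant arrays were all below WT for 27 of the 41, against 22.4% of all genes. By at least 2-fold 8 were lower and 1 higher, against 1.22% and 0.692% of all genes. This is 1 array against 1, so the difference has no replicate check. Against all 4 WT arrays, the sort label ignored, the median was -0.19 and 3 were lower by at least 2-fold. Epcam was at 11.65 in WT and 10.78 in Il10_KO, and Krt8 at 12.92 and 12.67.

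The largest differences were in Vsig2, Nxpe2 and Chga. Vsig2 was at 7.53 in WT and 5.74 in Il10_KO, 3.45-fold lower. It was the only one of the 41 to pass by limma, with the spread taken from the other groups (-1.79 ± 0.25, SE, adjusted p = 0.0377), where 7.90% of all genes passed. The call was lost in 7 of 12 alternatives, among them with only the brighter genes tested (adjusted p = 0.235), with quantile normalization (0.13) and on leaving out each of the 3 resident WT arrays in turn (0.0819 to 0.102). Nxpe2 was at 10.35 in WT and 8.89 in Il10_KO (adjusted p = 0.085), and Chga at 7.77 and 6.40 (adjusted p = 0.366). Sycn was at 12.10 and 10.81, Guca2a at 11.98 and 10.67 and Car2 at 12.14 and 11.19. The 4 genes that were low in both Il10ra_mKO arrays were lower in Il10_KO too, as were 39 of the 41 and 43.7% of all genes. By 2-fold or more 3 of the 4 were lower, against 8 of the 41 and 1.22% of all genes. Sycn and Nxpe2 were among the 3 and had been listed with their differences known. Of the others, Guca2a was at -1.31 and Car2 at -0.94. Aqp8, a water channel of the colonocyte, was at 7.26 in WT and 8.30 in Il10_KO, Krt20 at 10.21 and 10.30, and Lypd8 at 13.27 and 13.22.

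A separate contrast set the Il10_KO effect against the Il10ra_mKO effect, and 0 of the 41 passed by limma, where 4.70% of all genes did. At an unadjusted p under 0.05, 3 of the 41 had a higher value in this contrast and 1 a lower one (7.36% and 8.49% of all genes). Sycn and Nxpe2 were among the 3, and without them 1 of 39 was higher. Both had been listed with their Il10ra_mKO difference known, so this contrast is no separate test of them. The Il10_KO difference was less negative than the Il10ra_mKO difference by 2.90 ± 0.41 (SE, adjusted p = 0.0513) for Sycn and by 2.26 ± 0.36 (adjusted p = 0.0654) for Nxpe2. With each array centred on its median Sycn passed (adjusted p = 0.0291).

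In WT mice the CX3CR1hi array had higher values for these transcripts than the resident arrays. Its upper quartile of all values was higher too, at 8.26 against 7.93 to 7.97. The sort label, the kit, an array batch and this wider scale cannot be told apart here. The median difference of the 41 was 0.53, or 1.44-fold, with 38 of the 41 higher, against 48.4% of all genes. By limma 2 of the 41 rose and 0 fell, against 19.5% and 36.1% of all genes. They were Vsig2 (1.09 ± 0.21, SE, adjusted p = 0.0164), which was lost without WT resident array 1 (adjusted p = 0.0579), and Ascl2 (0.85 ± 0.08, adjusted p = 0.00272). Most genes passed in this contrast (55.7%), so a call in it sets no gene apart, and it compares 1 array with 3.

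Further epithelial genes, a list that overlaps none of the 41, ranked the 7 arrays by mean level in the same order. This list too was put together with earlier results of these data known, so it is no independent check. Of the 50 listed, 49 were measured. Their median difference was -0.12 in Il10ra_mKO array 1, -1.16 in array 2 and -0.72 in Il10_KO, and 25 of 49 were lower by at least 2-fold in array 2 (2.63% of all genes) against 6 in array 1 (0.968%). None passed for Il10ra_mKO against WT, and 15 were lower and 1 higher at an unadjusted p under 0.05 (3.86% and 4.06% of all genes). Cyp2c55, a cytochrome P450 of the colon, was at 9.99, 10.73 and 10.02 in resident WT, against 5.61 and 4.78 in Il10ra_mKO (-5.05 ± 0.39, SE, adjusted p = 0.172). Reg4, a secreted lectin, was at 9.85, 10.91 and 10.18 in WT, against 7.08 and 7.18 in Il10ra_mKO (-3.18 ± 0.36, adjusted p = 0.243). Clca4b, of the calcium-activated chloride channel regulator family, was higher in the mutants. It was at 5.28, 5.40 and 5.32 in resident WT, against 11.44 and 9.43 in Il10ra_mKO (5.10 ± 0.66, SE, adjusted p = 0.258), and at 5.75 in CX3CR1hi WT and 9.92 in Il10_KO (adjusted p = 0.123). Its WT levels lay under log2 5.86. Spint1, a protease inhibitor of epithelial cells, was at 11.35, 11.35 and 11.63 in WT, against 11.35 and 11.34 in Il10ra_mKO.

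**Figure D4:**
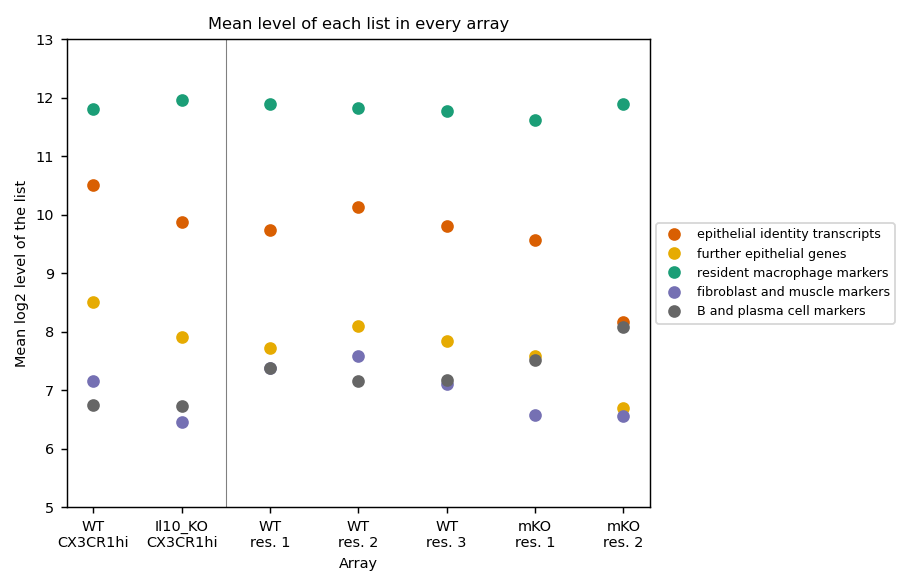
Mean log2 level (vertical axis) of 5 gene lists in each of the 7 arrays (horizontal axis), CX3CR1hi arrays left of the grey line and resident arrays (res.) right of it, with mKO for Il10ra_mKO. The epithelial transcripts run from 9.74 to 10.13 in resident WT and stand at 8.17 in Il10ra_mKO array 2. The mean of the macrophage markers stays between 11.63 and 11.96 in all 7 arrays, while single markers differ by more. Lists hold different probes, so only the points of 1 list can be compared.

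Markers of other cell types had the following values in the same arrays. Macrophage markers had medians of -0.12 in Il10ra_mKO array 1 and 0.14 in array 2. Single markers went both ways, from -1.57 to 0.55 in array 1 and from -1.84 to 1.42 in array 2. Lyz2, lysozyme, was at 13.47, 13.54 and 13.52 in WT, against 13.54 and 13.66 in Il10ra_mKO. The mannose receptor gene Mrc1 was at 12.42, 12.26 and 12.28 in WT, against 11.25 and 11.84 in Il10ra_mKO. Fibroblast and muscle markers were lower in both deleted arrays to a similar extent, with medians of -0.69 and -0.88. In both arrays 8 of 12 lay below all 3 resident WT arrays (8.50% of all genes). The matrix gene Dcn was at 11.26, 11.39 and 10.63 in WT, against 9.26 and 9.68 in Il10ra_mKO, and Dpt at 9.39, 9.76 and 9.01 and at 7.00 and 7.71. B and plasma cell markers (8 of 10 measured) were on balance higher, with medians of 0.33 and 0.61. By at least 2-fold, 0 of 8 were higher in array 1 (1.06% of all genes) and 3 in array 2 (1.28%). Their mean level was 7.17 to 7.39 in resident WT, 7.51 in array 1 and 8.08 in array 2. In array 2, 6 were higher and 2 lower than WT, from -0.26 for Tnfrsf17 to 2.27 for Ms4a1. A link between these levels and the epithelial ones was not tested. Jchain, the joining chain of antibodies, was at 11.55 to 11.60 in WT, against 11.36 and 11.46 in Il10ra_mKO. Medians were 0.24 and 0.16 for T cells and innate lymphoid cells, and -0.02 and -0.01 for endothelium and glia. For neutrophils, mast cells and eosinophils they were 0.05 and 0.03. In these lists 5 of 8, 5 of 8 and 9 of 12 genes lay under the median of all deposited values in every array. Medians of such dim lists cannot show whether these cells changed. Both deleted arrays lay above all 3 resident WT arrays for 2, 0 and 3 genes. They lay below all 3 for 0, 1 and 0. Those above included, as differences from WT, Cd3e (0.67 and 0.26), Thy1 (0.60 and 0.21), S100a8 (0.87 and 0.23) and S100a9 (0.56 and 0.17). Cd4, Pecam1 and Ly6g were chosen as the brightest genes of these 3 lists and do not stand for the dimmer ones. Cd4 was at 0.02, Pecam1 at 0.58 and Ly6g at 1.28 from WT over both arrays. Ly6g was at 2.08 in array 1 and 0.48 in array 2. In the Il10_KO array the medians were 0.16 for macrophages and -0.64 for fibroblasts and muscle. The part of these other cells in the epithelial differences was not tested.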

How the data were processed

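Total RNA from sorted macrophages was hybridised to Affymetrix arrays. The deposited values are log2 levels made by the authors. Per the submitters' processing notes, RMA and Partek were used; versions, genome build and whether the sort labels were normalized jointly: not given in the sources used here. Of 35399 rows, 21789 carried 1 gene symbol, 1621 several and 11989 none; for the 999 genes with several rows the brightest was kept, which left 19938 genes. No brightness filter was applied. By gene ID, 21698 rows matched RefSeq (GRCm38.p6), used for names.

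Groups were genotype by sort label. limma 3.58.1 in R 4.3.3 (lmFit, eBayes with a trend) was fitted to all 7 arrays with 3 residual degrees of freedom, and p-values were adjusted by Benjamini-Hochberg over all genes. A group of 1 array is assumed to vary as the others do. Differences of single arrays are from the WT mean of the sort label. The fit was tested on simulated data. Members and lists were chosen with earlier results of these data known. The rule for named genes took the 2 brightest members of each role, the 4 smallest p in each direction for Il10ra_mKO (only 2 members were higher), the 3 most extreme in each direction for Il10_KO, and up to 4 genes of each other list. Replicate numbers only name arrays. No pair of arrays was identical. Precision is limited by how few arrays there are.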

Additional observations from a re-analysis of the deposited data

Results flagged for a closer look

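Aqp8 is listed because its difference from WT had opposite signs in the mutants in every array. It was -0.56 and -0.64 in the Il10ra_mKO arrays and 1.04 in the Il10_KO array. The Il10_KO difference minus the Il10ra_mKO difference was 1.64 ± 0.47 on the log2 scale (SE), and it did not pass by limma (adjusted p = 0.226). No group held enough arrays for a check of single outlying arrays.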

How the results depend on the processing

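No paired analysis was possible because the labels carry no replicate numbers; runs of neighbouring sample numbers served as a block. The median of the 41 epithelial transcripts stayed negative in all settings tried, for Il10ra_mKO and for Il10_KO. Over leaving out each resident array, the Il10ra_mKO median ran from -1.67 to -0.21. Against 1 WT group of 4 arrays the Il10_KO median was -0.19, with 3 members lower by at least 2-fold instead of 8. Members higher by at least 2-fold numbered 1 in place of 2 in Il10ra_mKO array 1 with that group or on leaving out arrays (1 to 2), and 0 in place of 1 in Il10_KO with quantile normalization or median centring.

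Genes past the threshold for Il10ra_mKO numbered 1 in the analysis reported, 12 with only brighter genes, 138 with quantile normalization, 421 with median centring, 4 without a trend, 70 with 1 WT group, 0 with the block and 0 to 267 on leaving out arrays. Of the 41 transcripts 0 passed, and 2, 4, 5 and 3 did with brighter genes, quantile normalization, median centring and 1 WT group, and 0 to 3 on leaving out arrays. For Il10_KO 1576 genes passed, then 2, 17, 129, 758, 0 and 446 in the same order of settings, and 559 to 2788 on leaving out arrays. Of the 41, 1 passed, 0 with brighter genes, quantile normalization, no trend or 1 WT group, and 0 to 2 on leaving out arrays. For the difference between the effects 937 passed, then 1, 11, 20, 30, 1 and 0, and 0 to 2200 on leaving out arrays; of the 41, 1 with median centring and 0 to 1 on leaving out arrays. For the WT sort labels 11097 passed, 3321 with brighter genes and 4676 with quantile normalization; of the 41, 1 with brighter genes, 7 with median centring and 1 to 4 on leaving out arrays. The cause of these changes was not tested, other than that fewer genes or arrays enter some settings.

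Among single genes for Il10ra_mKO, Ceacam20 turned to -0.10 with 1 WT group and ran from -0.75 to 1.09 on leaving out arrays. Krt20 ran from -0.57 to 1.89, Ceacam1 from -1.18 to 0.053 and Elf3 from -2.13 to 0.56 on leaving out arrays, and Cd4 was -0.053 with the block and ran from -0.23 to 0.28. Dim genes near the lower end of the scale limit what these arrays can show.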

Other observations

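Fabp2, Mep1a and Clca1, from the list of further epithelial genes above, were low in both Il10ra_mKO arrays. They were chosen after their values were seen and are already part of that list's counts. Of its 49 measured genes, 13 were higher than resident WT in array 1 and 2 in array 2. Fabp2, a fatty acid carrier of absorptive cells, was at -1.42 and -4.16 from resident WT in arrays 1 and 2 (adjusted p = 0.585 by limma). Mep1a, a brush border protease, was at -1.94 and -2.92 (adjusted p = 0.414), and Clca1, a protein secreted by goblet cells, at -2.14 and -4.15 (adjusted p = 0.615).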
